A study of Arabidopsis thaliana with 4 samples.

Results

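NAC proteins form one of the large families of plant transcription factors, named after NAM, ATAF and CUC, and bind DNA through a conserved domain at the N-terminal end. In roots they are known for switching on stress, abscisic acid (ABA) and cell-death programmes, for the differentiation of xylem and root cap, and for lateral root formation. Some are held in membranes by a hydrophobic tail and are released when the endoplasmic reticulum (ER) or the mitochondria are disturbed. The genes described here are those whose deposited gene title names a NAC domain or an ANAC number and whose probe set names 1 gene code. This choice gave 76 of the 20341 genes of the array. One of the 76, GPT, entered through the letters GLCNAC of a sugar transferase and is no NAC factor. It had signals between 409 and 430 on the 4 arrays and was left out, which leaves 75 NAC genes, each with 1 probe set. AT5G52380 is titled a vascular-related NAC-domain protein, but its deposited ontology terms name zinc and nucleic acid binding, while the gene known as VND6 has its own probe set. It was kept.

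The roots came from 4-week-old hydroponic Arabidopsis thaliana plants held for 6 h in 0.5 mM CaCl2. The 4 groups were the mutant wrky47-1 with 25 µM AlCl3 (wrky47 Al), the wild type with 25 µM AlCl3 (wild-type Al), wrky47-1 without Al (wrky47 control) and the wild type without Al (wild-type control). Each group had 1 array, so the spread within a group is unknown. Neither p-values nor errors were computed, and every difference given is one between single arrays. Comparisons that share an array are not independent of each other. The number of arrays limits the precision. The number of plants behind an array is unknown here.

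Whole roots mix many cell types, so that fewer cells of a type and less RNA per cell cannot be told apart. All 7 root markers were detected on the 4 arrays. Their summed signal was 13517 in wrky47 Al, 14337 in wild-type Al, 25853 in wrky47 control and 28652 in wild-type control, and each of the 7 was lower in Al in both genotypes. The nitrate transporter NRT2.1, the aquaporin TIP2;3 and the endodermal CASP1 were lower by 2-fold or more in both. The largest signals in the sum were PYK10 (10915 in wild-type control) and NRT2.1 (9817). SCR, SHR and COBL9 were lower by 1.40-, 1.13- and 1.45-fold in wrky47 and by 1.27-, 1.36- and 1.43-fold in wild type. PYK10 was lower by 1.28-fold in wrky47 and 1.46-fold in wild type. The part of this shift in the results was not tested. Of the 3 markers of green tissue with a probe set of their own, 1, the Rubisco activase RCA, was detected (signals of 99.0 to 105 over the arrays), and LHCB4.2 and GAPA were not. WRKY47, the gene hit in the mutant, had signals of 24.1 in wrky47 Al and 27.6 in wrky47 control, both below the detection floor, against 203 in wild-type Al and 173 in wild-type control.

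A gene was called detected on an array when its signal exceeded the 40th percentile of that array, a linear signal of 75.1 in wrky47 Al, 75 in wild-type Al, 79.1 in wrky47 control and 81.1 in wild-type control. It was measured in a comparison when detected on both arrays. Of the 75 NAC genes 36 were detected on all 4 arrays (48%, against 60.1% of all genes), 4 on 1 to 3 arrays and 35 on none (46.7%, against 33.8% of all genes). Detection differed between the roles these genes are known for. All 10 membrane-tethered NAC genes were detected on every array, as were 11 of the 15 genes of stress, ABA and senescence. These 11 include NAC046 and NAC087, which are also known from root cap cell death. Of 12 genes of secondary wall and xylem 3 were detected, and neither the 2 genes placed in the root cap role nor the 3 phloem genes were. The master switches of xylem and fibre fate VND1 to VND7, SND1 and NST2, the root cap regulators BRN1 and BRN2 and the phloem regulators NAC020, NAC045 and NAC086 thus had no level that could be compared. The same held for NAC036, NAC071, NAC090, LOV1, NARS1 and 16 of the 24 genes without an assigned role.

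The first question was which NAC genes differed after 6 h of Al. In wrky47 roots 6 of 37 measured NAC genes were higher in Al by 2-fold or more, namely JUB1, NAC055, ORE1, NAC087, NAC032 and NAC069, and 1, NAC096, was lower. In wild-type roots 5 of 36 were higher, namely JUB1, NAC032, ORE1, NAC087 and NAP, and NAC096 was lower. Over all measured genes 3.42% were higher and 1.97% lower in wrky47, and 3.05% were higher and 2.42% lower in wild type. With genes detected in Al only counted by their bound (the Al signal over the control floor), 7 of 39 NAC genes were higher in wrky47 (3.76% of all genes) and 7 of 39 in wild type (3.37% of all genes). The lower count stayed at 1 in each genotype, where 2.14% of all genes were lower in wrky47 and 2.66% in wild type. After quantile normalization or centring of the arrays the wild-type counts were 5 higher and 0 lower. The median difference of the measured NAC genes was 0.38 on the log2 scale in wrky47 and 0.22 in wild type, while that of all measured genes was -0.07 and -0.12. With the floor raised to the 60th percentile 2 of 22 measured NAC genes were higher in wrky47 (ORE1 and NAC087) and 3 of 22 in wild type (ORE1, NAC087 and NAP), with 0 lower in either. JUB1, NAC032, NAC055, NAC069 and NAC096 then had a signal below the floor on at least 1 array and were no longer measured. The share of all genes past 2-fold under this higher floor is not given, so these counts cannot be set against it.

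JUB1 (AT2G43000, also ANAC042), a factor induced by hydrogen peroxide that is known to delay senescence, had signals of 523 in wrky47 Al, 396 in wild-type Al, 94.6 in wrky47 control and 89.1 in wild-type control. Both Al arrays stood well above both control arrays. Its log2 difference was 2.47 in wrky47 and 2.15 in wild type, the highest of the measured NAC genes in each genotype, and it ranked 26 of 12465 and 46 of 12434 measured genes. The deposited annotation aligns its probe set to chromosome 2, positions 17880617 to 17882584 on the minus strand. These alignments carry no named genome build.

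NAC055 (AT3G15500, chromosome 3, 5234731 to 5235882, plus strand) and NAC019 (AT1G52890, chromosome 1, 19697292 to 19698444, minus strand) are close relatives that act in jasmonate, ABA and drought signalling. NAC055 had signals of 562 in wrky47 Al, 479 in wild-type Al, 104 in wrky47 control and 78.1 in wild-type control. The last of these was just below the floor. NAC055 was therefore 2.43 higher on the log2 scale in wrky47 and at least 5.90-fold higher in wild type. NAC019 had signals of 327 in wrky47 Al and 174 in wild-type Al, against 53.7 in wrky47 control and 45.6 in wild-type control, both below the floor. It was detected in Al solution alone in both genotypes, at least 4.13-fold higher in wrky47 and at least 2.15-fold higher in wild type. The gene table in use gives the symbol NAC3 to NAC055 and also to ORS1 (AT3G29035), a positive regulator of leaf senescence. These 2 genes did not move alike, as ORS1 stood at -0.29 in wrky47 and -0.46 in wild type.

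ORE1 (AT5G39610, also ANAC092; chromosome 5, 15858591 to 15859650, minus strand) promotes senescence and cell death. Its signals were 1148 in wrky47 Al, 887 in wild-type Al, 317 in wrky47 control and 296 in wild-type control. The log2 difference was 1.86 in wrky47 and 1.58 in wild type. NAC087 (AT5G18270, chromosome 5, 6041241 to 6042743, minus strand), which takes part in programmed cell death of the root cap, had signals of 1186, 1031, 412 and 409 in the same order of arrays. Its difference was 1.52 in wrky47 and 1.33 in wild type. NAC046, which acts with NAC087 in root cap cell death, stood at 0.15 in wrky47 and 0.21 in wild type, with signals of 1021 in wrky47 Al, 1135 in wild-type Al, 920 in wrky47 control and 979 in wild-type control.

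NAC032 (AT1G77450, chromosome 1, 29100029 to 29100981, plus strand), a stress and ABA factor of the ATAF group, had signals of 360 in wrky47 Al, 452 in wild-type Al, 126 in wrky47 control and 121 in wild-type control. Of the 4 NAC genes higher by 2-fold in both genotypes it was the 1 with the smaller difference in wrky47, 1.51 against 1.90 in wild type. Its relative NAC102, known from low-oxygen stress, lay at 0.54 in wrky47 and 0.59 in wild type. NAP (AT1G69490, chromosome 1, 26122233 to 26123222, plus strand), an activator of leaf senescence and ABA synthesis, had signals of 631 in wrky47 Al, 607 in wild-type Al, 366 in wrky47 control and 303 in wild-type control. Its difference was 0.78 in wrky47 and 1.00 in wild type, so that it lay at the 2-fold line. The other stress and senescence genes measured were nearer to 0. VNI2, a repressor of xylem fate that also links ABA to ageing, stood at 0.29 in wrky47 and 0.36 in wild type, NAC041 at 0.38 and 0.16, and the flooding-response gene NAC047 at 0.16 and 0.30. Over this role 5 of 12 measured genes were higher by 2-fold in wrky47 and 5 of 11 in wild type, beside 3.42% and 3.05% of all measured genes. The medians were 0.66 in wrky47 and 0.59 in wild type, beside -0.07 and -0.12 over all measured genes. The roles were assigned with earlier results of these data known, so these counts are descriptions. ATAF1 (0.96 in wrky47 and 0.86 in wild type) and RD26 (0.42 and 0.41) have this role but titles outside the rule. They are not in the counts.

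**Figure D1:**
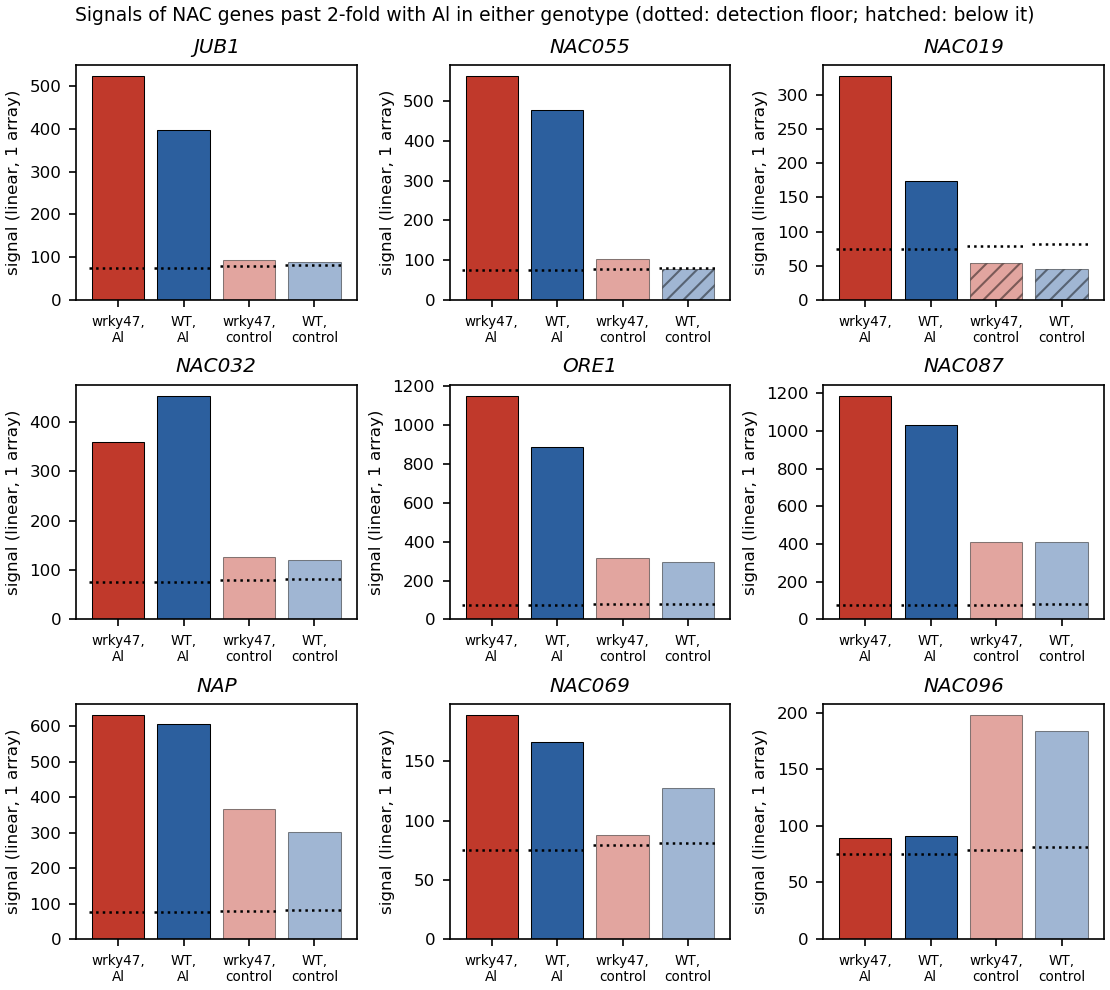
Linear signal on each array of the 9 NAC genes past 2-fold with Al in either genotype, bounds included. Bars stand for single arrays (wrky47 red, wild type blue, control solution pale), dotted lines mark the detection floor of the array, and hatched bars lie below it. The Al bars exceed the control bars in both genotypes for every gene shown except NAC096, where they are lower.

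The membrane-tethered NAC factors are controlled in part by release of the protein from the membrane, which transcript levels do not show. Of the 10 measured, 1 was higher by 2-fold in wrky47 and 0 in wild type, near the shares of all measured genes (3.42% and 3.05%). Above 0 lay 8 of 10 in each genotype, beside 42.2% of all measured genes in wrky47 and 35.9% in wild type, and the medians were 0.58 and 0.36. NAC069 (AT4G01550, chromosome 4, 674025 to 676225, minus strand), known from salt responses of germinating seeds, had signals of 189 in wrky47 Al, 166 in wild-type Al, 87.6 in wrky47 control and 127 in wild-type control. Its difference was 1.11 in wrky47 and 0.38 in wild type. The wrky47 control array was the lowest of the 4 and close to its floor of 79.1.

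NAC013 and NAC017 mediate the mitochondrial stress signal to the nucleus. NAC013 had signals of 278 in wrky47 Al, 197 in wild-type Al, 148 in wrky47 control and 118 in wild-type control, a difference of 0.91 in wrky47 and 0.73 in wild type. NAC017 was level, with signals between 1092 and 1130 on the 4 arrays and a difference of -0.01 in both genotypes. Its neighbour in the gene order, NAC016, which promotes senescence and drought sensitivity, differed from it in this. NAC016 had signals of 469 in wrky47 Al, 524 in wild-type Al, 268 in wrky47 control and 299 in wild-type control, a difference of 0.81 in both.

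NAC062, which acts in cold, pathogen and ER stress, had signals of 1953 in wrky47 Al, 1774 in wild-type Al, 1145 in wrky47 control and 1099 in wild-type control. Its difference was 0.77 in wrky47 and 0.69 in wild type. NAC001 stood at 0.71 in wrky47 and 0.39 in wild type. NAC078 and NAC053, the paired activators of proteasome genes under proteotoxic stress, stood at 0.44 and 0.13 in wrky47 and at 0.35 and 0.20 in wild type. NAC089, an ER-stress and sugar-sensing factor, was at 0.41 in wrky47 and 0.34 in wild type. The calmodulin-binding NTL9 was at -0.13 and -0.17. None of these 6 genes reached 2-fold in either genotype.

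**Figure D2:**
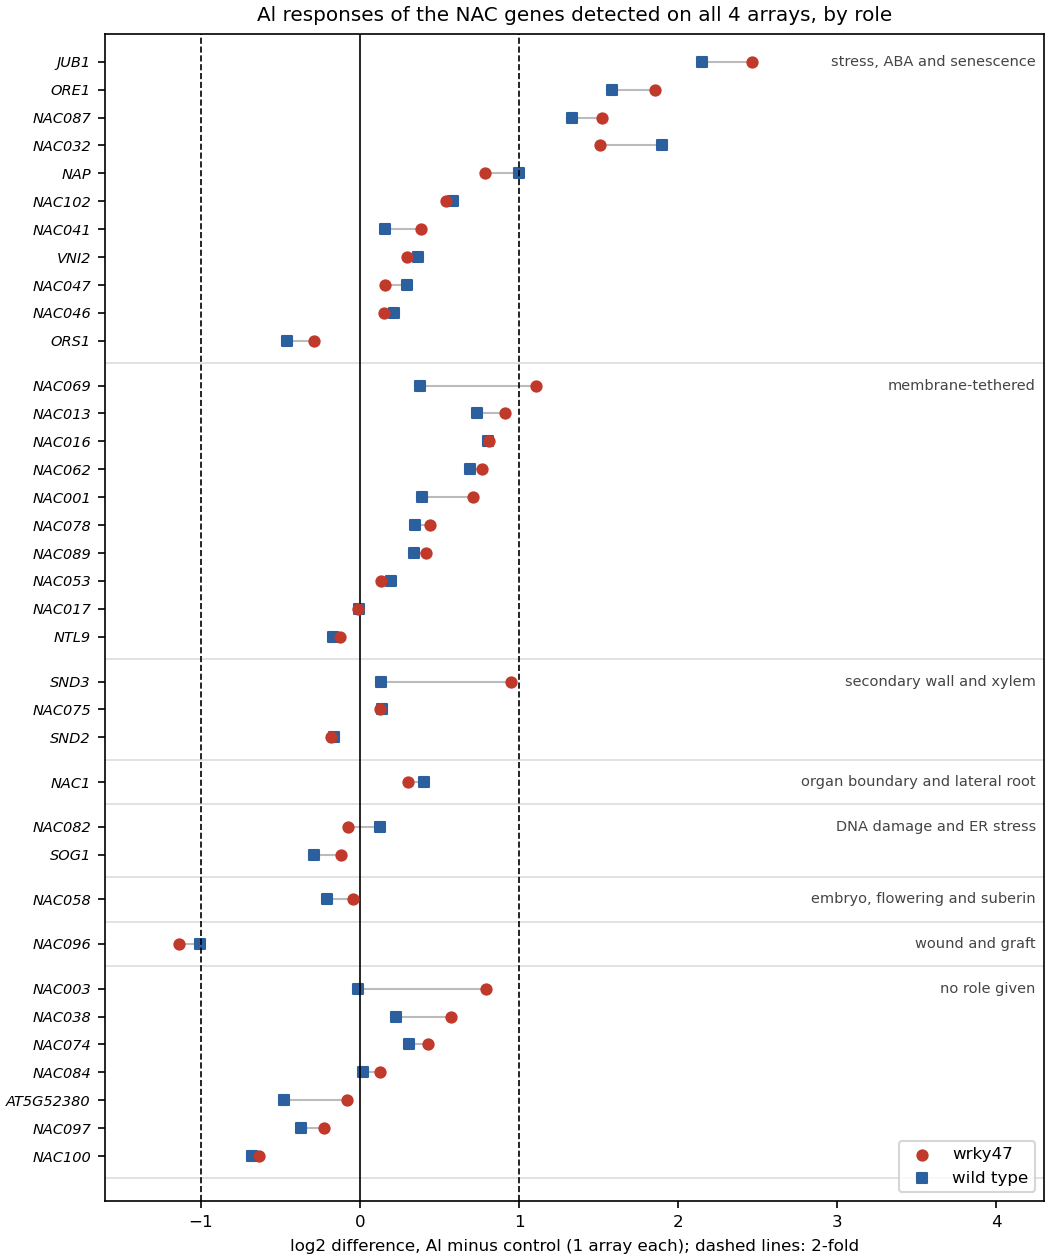
Log2 difference between the Al and the control array for each of the 36 NAC genes detected on all 4 arrays, grouped by role (wrky47 red circles, wild type blue squares, 1 array per group). The 4 NAC genes higher by 2-fold in both genotypes, JUB1, ORE1, NAC087 and NAC032, were all placed in the stress, ABA and senescence role. Roles were assigned with earlier results of these data known, so this grouping is a description. NAC096 is the gene beyond the lower dashed line.

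NAC096 (AT5G46590, chromosome 5, 18905679 to 18906811, plus strand), which acts in drought responses and, with NAC071, in vascular tissue after wounding, was the measured NAC gene with the lowest difference. Its signals were 89.7 in wrky47 Al, 91.5 in wild-type Al, 198 in wrky47 control and 184 in wild-type control. Both Al arrays were below both control arrays and close to their floors. The difference was -1.14 in wrky47 and -1.01 in wild type, and in wild type -0.90 after quantile normalization and -0.94 after centring, short of 2-fold. NAC100, a gene without an assigned role, followed at -0.64 in wrky47 and -0.68 in wild type, with signals of 127 in wrky47 Al, 111 in wild-type Al, 198 in wrky47 control and 177 in wild-type control.

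NAC100, NAC080, ORE1 and NAC1 are known targets of the microRNA miR164, and they did not move together. ORE1 was higher in Al, as described above. NAC1, which passes the auxin signal to lateral root formation, had signals of 1341 in wrky47 Al, 1175 in wild-type Al, 1088 in wrky47 control and 890 in wild-type control, a difference of 0.30 in wrky47 and 0.40 in wild type. NAC080 was detected on the wild-type control array alone, at 97.0, against 47.5 in wrky47 Al, 59.3 in wild-type Al and 75.8 in wrky47 control, all below the floor. It was thus at least 1.29-fold lower in wild-type Al than in wild-type control. The miR164 targets CUC1 and CUC2, which set organ boundaries, have titles outside the rule and were below the floor on all 4 arrays.

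The other roles held no gene past 2-fold in either genotype. SND3, an activator of secondary wall genes downstream of SND1, stood at 0.95 in wrky47 and 0.13 in wild type. Its relative SND2 was at -0.18 and -0.16, and NAC075, an upstream regulator of vessel formation, at 0.13 and 0.14. SOG1, the master regulator of the DNA damage response, was at -0.12 in wrky47 and -0.29 in wild type, and NAC082, which responds to defects in ribosome assembly, at -0.08 and 0.12. NAC103, a target of both SOG1 and the ER stress factor bZIP60, exceeded the floor in wrky47 Al alone, at 79.3. NAC058, a regulator of suberin formation, was at -0.05 in wrky47 and -0.20 in wild type. Of the 7 measured genes without a role NAC003 had the highest value in wrky47, 0.79, against -0.01 in wild type. The others were NAC038 (0.57 and 0.23), NAC074 (0.43 and 0.31), NAC084 (0.13 and 0.02), AT5G52380 (-0.08 and -0.48), NAC097 (-0.23 and -0.37) and NAC100, with wrky47 given before wild type.

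Across the 36 NAC genes detected on all 4 arrays the Al differences of wrky47 and of wild type had a Pearson r of 0.926, beside 0.879 over the 12223 genes detected on all arrays. These r values are across genes, which share arrays and are not independent replicates. Of the 5 genes higher by 2-fold in each genotype within this set 4 were the same (80% of each list), and NAC096 was the 1 gene lower in both. Over all 12223 genes 300 were higher in both, which is 74.4% of the wrky47 list of 403 and 80.6% of the wild-type list of 372, so the shared part of the NAC lists was near that of all genes. NAC069 passed 2-fold in wrky47 alone and NAP in wild type alone, in both cases with the other genotype on the same side of 0.

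The second question was whether NAC genes differed between the genotypes. In Al 0 of 38 measured NAC genes were higher or lower by 2-fold in wrky47, where 0.23% of all measured genes were higher and 0.111% lower. In control solution 0 of 36 were, where 0.103% were higher and 0.206% lower. Bounds added 0 NAC genes in either solution, while with bounds 0.245% of all genes were higher and 0.13% lower in Al, and 0.0992% were higher and 0.229% lower in control solution. The NAC counts of 0 thus lie near the shares of all genes. The central 95% of all measured genes lay between -0.44 and 0.48 on the log2 scale in Al, and between -0.54 and 0.42 in control solution. These ranges hold both the genotype and the difference between 2 single arrays.

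In Al the highest NAC difference was that of NAC019, 0.90, with signals of 327 in wrky47 Al and 174 in wild-type Al, rank 42 of 12602 measured genes. SND3 followed at 0.76, with 400 in wrky47 Al and 236 in wild-type Al, against 207 in wrky47 control and 216 in wild-type control. The wrky47 Al array stood apart from the other 3 for SND3. NAC013 (0.50), NAC047 (0.47) and JUB1 (0.40) came next. The 5 lowest were NAC032 (-0.33), NAC016 (-0.16), NAC046 (-0.15), NAC053 (-0.11) and SND2 (-0.11). Of the 38 genes 30 lay above 0, beside 50.7% of all measured genes. The median was 0.15, beside 0.00 over all measured genes.

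In control solution NAC047, which is known for upward leaf movement in flooded plants, had the highest difference at 0.61, with 1509 in wrky47 control and 992 in wild-type control. It was higher in wrky47 in both solutions, as the signals in Al were 1687 in wrky47 and 1218 in wild type. NAC013 (0.32), NAC1 (0.29), NAC074 (0.28) and NAP (0.28) followed. The lowest were NAC069 (-0.54) and NAC003 (-0.50). NAC003 had 187 in wrky47 control and 263 in wild-type control, and 324 in wrky47 Al and 261 in wild-type Al, so that wrky47 was the lower genotype in control solution and the higher one in Al. SOG1 (-0.20), NAC001 (-0.18) and NAC016 (-0.16) completed the 5 lowest. The median was 0.05, beside -0.05 over all measured genes.

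**Figure D3:**
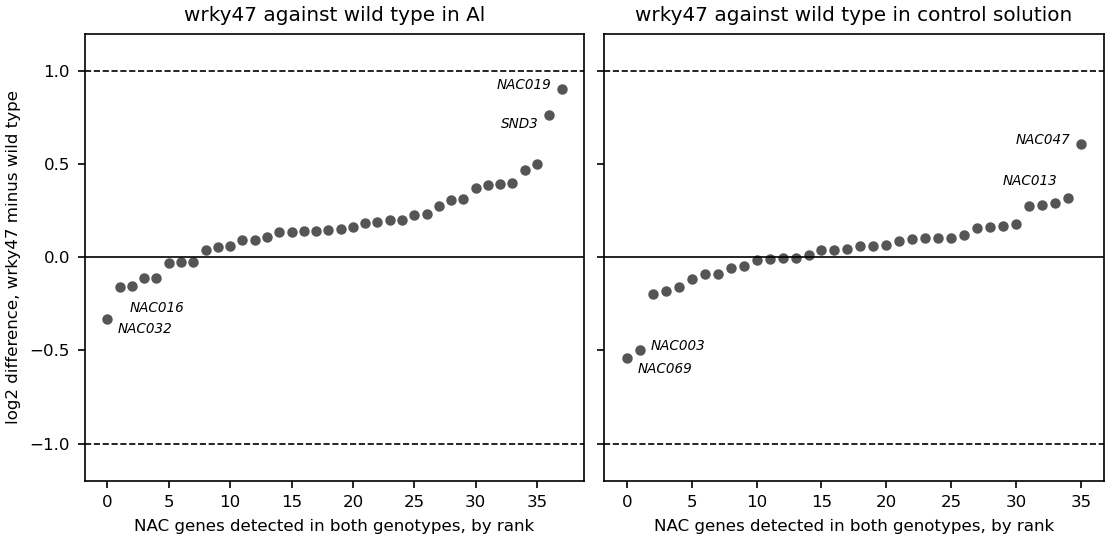
Log2 difference between wrky47 and wild type, sorted, for the NAC genes detected in both genotypes in Al (left, 38 genes) and in control solution (right, 36 genes). Each point is a difference between 2 single arrays, and none of the points reaches the dashed 2-fold lines.

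The third question was whether the Al response differed between the genotypes, taken as the response in wrky47 minus that in wild type. Of 36 NAC genes 0 passed 2-fold on this scale, where 0.131% of all genes were higher and 0.0573% lower. The highest were SND3 (0.82), NAC003 (0.80), NAC069 (0.73), AT5G52380 (0.39) and NAC038 (0.34). For NAC003 and NAC069 the low signal of wrky47 control enters this value, and for SND3 the high signal of wrky47 Al. The lowest were NAC032 (-0.39), NAP (-0.22), NAC082 (-0.20), NAC047 (-0.14) and NAC096 (-0.13). The median was 0.09, beside 0.05 over all genes.

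Some well-known NAC genes have deposited titles that do not match the rule. Of 18 such genes in the role lists 13 had a probe set of their own and 5 were detected on all arrays. ATAF1, a stress and ABA factor and relative of NAC032, had signals of 637 in wrky47 Al, 631 in wild-type Al, 327 in wrky47 control and 348 in wild-type control, a difference of 0.96 in wrky47 and 0.86 in wild type. RD26, the relative of NAC019 and NAC055 that responds to dehydration, stood at 0.42 and 0.41. It was thus below 2-fold where its relatives were above it. NARS2, known from seed development, had 136 in wrky47 Al, 176 in wild-type Al, 104 in wrky47 control and 87.5 in wild-type control, a difference of 0.38 in wrky47 and 1.01 in wild type. TIP, known for binding a viral coat protein, was at 0.20 and 0.16, and NAC014 at 0.05 and -0.36. The root cap regulators SMB and FEZ and the wall regulator NST1 were below the floor on all arrays, and XND1, a repressor of xylem fate, was above it in wrky47 Al alone, at 92.0.

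Genes that NAC factors are known to control were examined in 3 lists, which were chosen with earlier results of these data known. Their counts beside the shares of all genes are therefore descriptions and no independent support. The targets of NAC013 and NAC017 in the mitochondrial stress response were higher by 2-fold with Al in 6 of 7 measured cases in wrky47 (3.42% of all genes) and in 4 of 6 in wild type (3.05% of all genes). The medians were 1.89 in wrky47 and 1.33 in wild type. In wrky47 the 4 with the largest difference were the glycosyltransferase UGT74E2 (2.88), the glutathione transferase GSTU25 (2.37), the outer mitochondrial membrane protein AATP1 (2.23) and the sulfotransferase SOT12 (1.89). In wild type they were GSTU25 (2.13), GSTU24 (1.69), AATP1 (1.48) and SOT12 (1.19). AOX1A, the alternative oxidase by which this response is usually followed, had signals of 1997 in wrky47 Al, 1717 in wild-type Al, 974 in wrky47 control and 1018 in wild-type control, a difference of 1.04 in wrky47 and 0.75 in wild type. As bounds, and named after their values were seen, the transporter DTX3 was at least 4.43-fold and the NADH dehydrogenase NDB4 at least 2.35-fold higher in wrky47, and UGT74E2 at least 6.99-fold higher in wild type. DTX3 was at least 1.43-fold higher in wild type, where NDB4 had no bound above 1. UPOX was at least 1.52-fold higher in wrky47 and at least 1.15-fold higher in wild type. At12Cys-2 and HSP23.5 were below the floor on all 4 arrays.

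These mitochondrial targets were also compared between genotypes in Al. All 10 measured members lay above 0 in wrky47, beside 50.7% of all measured genes, and 2 of the 10 were higher by 2-fold (0.23% of all genes). Their median was 0.55, beside 0.00 over all genes. DTX3 had signals of 350 in wrky47 Al and 116 in wild-type Al, a difference of 1.60. NDB4 had 186 in wrky47 Al and 80.0 in wild-type Al, a difference of 1.22, with the wild-type signal near its floor. GSTU25 (0.96) and UGT74E2 (0.83) followed. In control solution 6 members were measured, 2 above and 4 below 0, with a median of -0.05. Of all measured genes 60.1% were below 0 there, and their median was also -0.05. DTX3, NDB4, UPOX and UGT74E2 were not measured there, and both members past 2-fold in Al are among these 4. Over the 6 members measured in both solutions the median was 0.32 in Al, with all 6 above 0. UGT74E2 was at least 1.70-fold higher in wrky47 control than in wild-type control. GSTU25 (0.72), AATP1 (-0.33), ABCB4 (-0.28) and GSTU24 (0.08) had the largest differences there.

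The targets of ORE1, NAP, ATAF1, NAC019, NAC055, RD26 and JUB1 in ABA responses and senescence showed less of a common movement. In wrky47 1 of 9 measured was higher by 2-fold with Al, the ABA transporter ABCG40 at 1.55, and in wild type 0 of 8, beside 3.42% and 3.05% of all measured genes. The medians were 0.27 in wrky47 and 0.22 in wild type, beside -0.07 and -0.12 over all measured genes. Below 0 lay 4 of 9 in wrky47 and 3 of 8 in wild type, beside 57.8% and 64.1% of all measured genes. Among them were RNS3 (-0.18 in wrky47 and -0.46 in wild type) and the salicylate synthesis gene ICS1 (-0.25 and -0.51). The list was not split by whether a factor raises or lowers the gene, so its median has no set direction. ABCG40 was not among the 8, as its wild-type control signal of 77.3 was below the floor, and it was at least 1.92-fold higher in wild-type Al. The ABA-induced phosphatase SAG113 was at least 2.76-fold higher in wrky47 and at least 1.78-fold higher in wild type. DREB2A, a drought and heat factor that JUB1 activates, was at -0.94 in wrky47 and -0.84 in wild type, with signals of 155 in wrky47 Al, 161 in wild-type Al, 297 in wrky47 control and 287 in wild-type control. It was therefore lower in Al in the same arrays in which JUB1 was higher. The nuclease BFN1, a target of ORE1, stood at 0.79 in wrky47 and 0.37 in wild type. The chlorophyll b reductase NYC1 stood at 0.79 and 0.63. The senescence marker SAG12 was below the floor on all 4 arrays. Between the genotypes in Al NYC1 (1.06) was the 1 member of 11 past 2-fold, and BFN1 (0.79), ICS1 (0.79) and ABCG40 (0.76) followed. Of all measured genes 0.23% were higher and 0.111% lower by 2-fold in this comparison. Above 0 lay 7 of the 11 members, beside 50.7% of all measured genes, and the medians were 0.47 and 0.00. NYC1 was also higher in wrky47 in control solution, by 0.90, short of 2-fold.

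Of the 15 secondary wall and xylem targets of VND, NST and SND1, 11 were measured with Al in wrky47 and 12 in wild type. Those regulators were themselves below the floor. MYB83, MYB103 and MYB58 were below the floor on all 4 arrays, and MYB46 on both wrky47 arrays. With Al 0 of 11 passed 2-fold in wrky47 and 0 of 12 in wild type. Of all measured genes 3.42% were higher and 1.97% lower in wrky47, and 3.05% and 2.42% in wild type. The medians were -0.21 in wrky47 and -0.17 in wild type, beside -0.07 and -0.12 over all measured genes. Below 0 lay 8 of 11 in wrky47 and 11 of 12 in wild type, beside 57.8% and 64.1% of all measured genes. Between genotypes all 11 measured members were below 0 in wrky47 in control solution and 9 of 11 in Al, none by 2-fold, with medians of -0.34 and -0.29 beside -0.05 and 0.00 over all genes. Of all measured genes 60.1% were below 0 in control solution and 49.3% in Al, and 0.206% and 0.111% were lower by 2-fold. In Al the cellulose synthase CESA4 had 225 in wrky47 and 381 in wild type (-0.76), and the xylem protease XCP1 had 961 in wrky47 and 1549 in wild type (-0.69). CESA7 (-0.65) and CESA8 (-0.57) followed. SND3, an activator of such genes, stood on the other side of 0 in the same comparison.

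**Figure D4:**
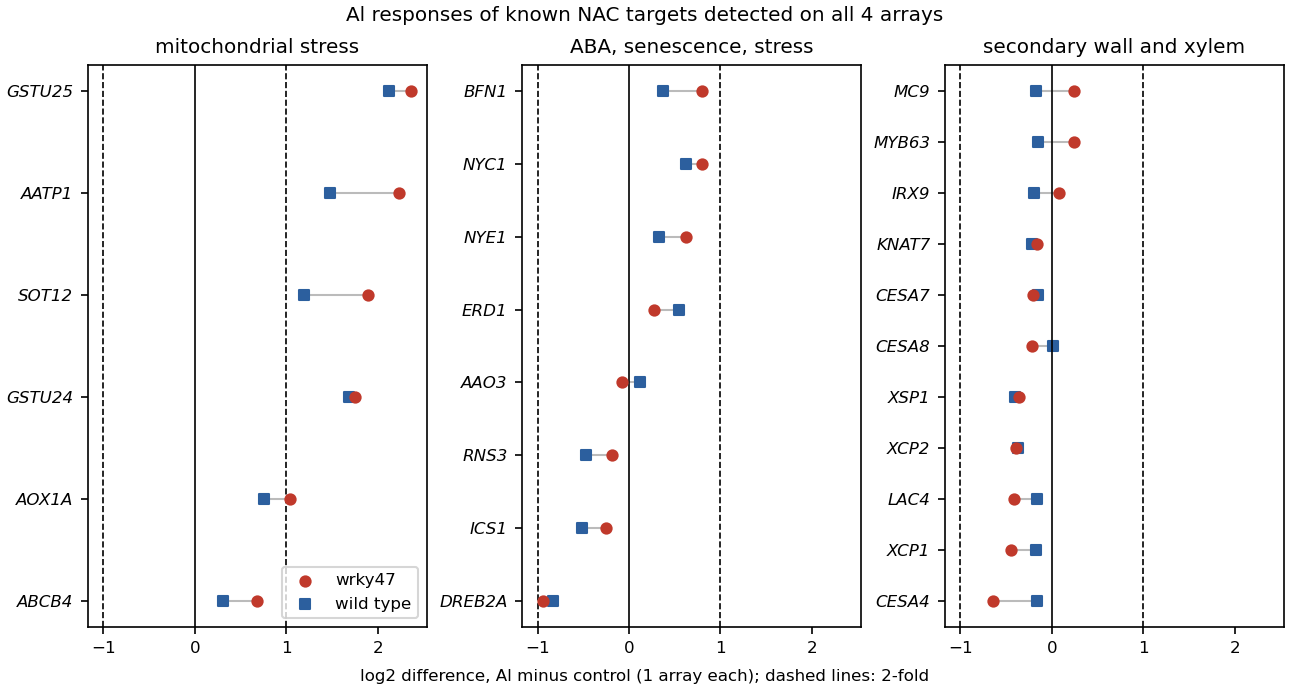
Log2 difference between the Al and the control array for known NAC targets detected on all 4 arrays, in 3 lists (wrky47 red circles, wild type blue squares, 1 array per group). All 6 mitochondrial stress targets lie above 0 in both genotypes, while the secondary wall and xylem targets lie within the dashed 2-fold lines.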

How the data were processed

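Total RNA of roots was hybridised to 4 arrays, 1 per genotype and solution as labelled. The deposited table holds 22810 probe sets, of which 64 are controls, with log2 signals per the file headers. The columns headed raw hold intensity values that the authors deposited on a linear scale, equal to 2 to the power of the log2 column. The deposited second table, named by sample, held the same log2 values (0 probe sets differed by over 1e-05). The submitters' processing notes name MAS5. Its settings and the annotation's build are unknown here.

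Genes took their brightest probe set by the mean of 4 arrays. The detection floor was the 40th percentile. The log2 difference was counted at 2-fold or more, and a gene detected on 1 of 2 arrays was given as a bound over the other array's floor. All 76 members matched the RefSeq gene table of TAIR10.1, used for names and gene order. Named were all members past 2-fold, the 5 highest and lowest per comparison, and up to 4 per role and target list, with further members and bounds added for completeness. Members, roles and lists were chosen with earlier results of these data known. Alternatives were quantile normalization, centring, no filter, a filter at the 60th percentile, an offset (the 20th percentile), a 1.5-fold threshold and, chosen after seeing the data, the inclusion of GPT. Code was tested on simulated data and run with Python 3.11.15, numpy 2.4.6 and pandas 2.3.3.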

Additional observations from a re-analysis of the deposited data

Results flagged for a closer look

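For 8 genes the Al difference lay on opposite sides of 0 in the genotypes, each on single arrays. NAC003 and NAC082 were the 2 among the 36 NAC genes detected on all 4 arrays. NAC014 is a NAC gene outside the rule, and MYB63, CESA8, IRX9, MC9 and AAO3 come from the target lists. The share of all genes with opposite signs is not given, so these counts cannot be set against it. The difference between the genotypes was not tested. As the response in wrky47 minus that in wild type, it was 0.80 for NAC003, -0.20 for NAC082, 0.41 for NAC014, 0.40 for MYB63, -0.22 for CESA8, 0.27 for IRX9, 0.42 for MC9 and -0.20 for AAO3. For none of the 8 did either genotype's own Al difference reach 2-fold.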

How the results depend on the processing

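No paired analysis was possible because each group has 1 array. With 1 array per group no alternative carries a test, and the limits are the single arrays and the low signals near the floor. Quantile normalization and centring each array left 0 NAC genes lower by 2-fold with Al in wild type, as did the offset, which also left 0 lower in wrky47. The stricter filter at the 60th percentile left 22 measured NAC genes per genotype, of which 2 were higher and 0 lower in wrky47 (median 0.23) and 3 higher and 0 lower in wild type. Without a filter the medians with Al were 0.055 in wrky47 and 0.084 in wild type over 75 genes. At 1.5-fold 13 were higher and 2 lower in wrky47, and 9 higher and 2 lower in wild type. At that threshold 1 was higher in wrky47 than in wild type in control solution, 2 in Al, and 3 in the difference of the responses. The shares of all genes at 1.5-fold and under the stricter filter are not given, so these counts cannot be set against all genes. Other counts kept within 1.5 times and medians within 0.1, also with GPT included. Under quantile normalization, centring and the offset, the settings that can move a single gene's value, genes past 2-fold stayed past it in 33 of 39 values. The 6 exceptions were NAC096 under quantile normalization, centring and offset in wild type and offset in wrky47, and NAP in wild type (0.95) and NAC069 in wrky47 (0.90) with the offset.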
